A study of Mus musculus with 12 samples.

Results

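The transforming growth factor beta (TGF-beta) genes described here are 3 ligands (Tgfb1, Tgfb2 and Tgfb3), 3 receptors (Tgfbr1, Tgfbr2 and Tgfbr3), the signal carrier Smad3, the inhibitory target Smad7 and the ligand-binding protein Ltbp1. They were found by matching the Ensembl IDs of the gene count matrix to these symbols, which gave 9 genes of the 55401 in the matrix. All 9 were among the 20818 genes with enough counts to be tested. Counts per gene and tumor ran from 52 to 15001.

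The 12 libraries were poly(A) RNA from mouse tumors grown from TC2Ras cells, a Ras-driven mouse prostate cancer cell line, and the question was how adipose-derived stromal cells (ASC) and inorganic arsenic (iAs) in drinking water change such tumors. TC2Ras cells (125000) were implanted under the skin of both flanks, and the tumors of both flanks were pooled per mouse on day 21. Control tumors held TC2Ras cells only, in mice given water with 0 ppb iAs. ASC tumors came from TC2Ras cells mixed with 1% GFP-carrying ASC, again at 0 ppb. As300 tumors (A300 in the labels) held TC2Ras cells only and ASC_As300 tumors (ASC300 in the labels) the 1% mix, and these mice drank water with 300 ppb iAs. All hosts, Control mice included, ate low-arsenic purified chow and drank purified water before implantation. Their strain, sex and age are not given in the sources used here. There were 3 tumors per group, and TC2Ras is a single line, so the replicates are hosts and not independent cancers.

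TGF-beta ligands are secreted in a latent form that latent TGF-beta binding proteins such as LTBP1 tether to the matrix, and they must be released before they can act. Free ligand brings together the type II receptor TGFBR2 and the type I receptor TGFBR1, with TGFBR3 (betaglycan) presenting ligand, and the type I receptor then phosphorylates SMAD2 and SMAD3. Smad7 is induced by the same signal and blocks the receptor, and in tumors the pathway is known for acting on cancer cells, fibroblasts and immune cells alike.

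The total count per tumor lay between 39157647 and 55168642. The labels call the material ASC, although their protocols describe whole tumors, and in the data the 6 epithelial and tumor markers summed to 25.5 to 361 CPM (read counts scaled to library size with edgeR's TMM factors). Nearly all of that was the simple-epithelium keratin Krt8 (24.1 to 337 CPM), while Epcam, Krt5, Krt14 and Cdh1 were each below 3 CPM in every tumor, and Krt18 was at 19.7 CPM in Control replicate 1 and below 2 CPM elsewhere. The macrophage list (6 genes summed) ran from 644 to 1330 CPM and the fibroblast and ASC list (10 genes) from 3730 to 6400 CPM. Control replicate 1 stood apart: its B and plasma cell list summed to 135 CPM against at most 8.76 CPM in the others. In such bulk samples, fewer cells of a type and less RNA per cell cannot be told apart.

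Among the ligands, per exon length, Tgfb3 RNA was the most abundant and Tgfb2 the scarcest. Promoter windows from RefSeq (GRCm38.p6), the 250 bases before the annotated start, were at hand for 6 of the 9 genes. Those of Tgfb1, the only gene of the 9 that passed the test below, and of Tgfb2, which did not, are shown for their contrast in sequence; the Tgfb1 window lies at chr7:25686752-25687001 (plus strand) and the Tgfb2 window at chr1:186705990-186706239 (minus strand). Capitals mark the GC box (GGGCGG or CCGCCC), the E-box (CACGTG) and the TATA box (TATAAA or TTTATA).
Tgfb1: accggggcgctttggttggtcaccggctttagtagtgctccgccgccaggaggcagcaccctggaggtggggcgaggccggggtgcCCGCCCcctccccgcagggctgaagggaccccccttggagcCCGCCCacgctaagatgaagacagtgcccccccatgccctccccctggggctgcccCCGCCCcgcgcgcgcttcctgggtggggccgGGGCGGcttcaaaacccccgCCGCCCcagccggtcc
Tgfb2: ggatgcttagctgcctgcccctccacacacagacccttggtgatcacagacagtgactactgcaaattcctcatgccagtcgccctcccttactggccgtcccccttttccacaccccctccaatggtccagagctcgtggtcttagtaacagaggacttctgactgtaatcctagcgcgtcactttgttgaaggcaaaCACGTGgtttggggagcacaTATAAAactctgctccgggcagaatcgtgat
The Tgfb1 window held 5 GC boxes and was 75.2% G and C. Of all 32851 windows, 32.7% held at least 1 GC box and 1.93% at least 5, and the median was 52.4% G and C. A Tgfbr1 window (74.8% G and C) and the Smad3 window (69.2%) held 2 GC boxes each, although neither gene passed the test. The other Tgfbr1 window and those of Tgfbr2 and Ltbp1 held 0. The Tgfb2 window held no GC box, 1 E-box, found in 6.0% of windows, and 1 TATA box, found in 12.4%, and was 53.6% G and C. The other motifs searched on both strands, AP-1 (TGACTCA) and CRE (TGACGTCA), were in neither window, and the short SMAD element CAGAC, present in 42.2% of windows, was in Tgfb2 only, with 2 matches that are left in lower case. These matches describe letters and are not binding sites.

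On the scale of mean CPM per kilobase of exon over the 12 tumors, the levels were 50.4 for Tgfb3, 22.9 for Ltbp1, 19.8 for Tgfb1, 16.6 for Tgfbr2, 12.1 for Smad3, 7.89 for Tgfbr3, 6.05 for Tgfbr1, 2.97 for Smad7 and 1.80 for Tgfb2. Tgfb3 was above Ltbp1, Tgfbr2 above Smad3, and Smad3 above Tgfbr3 in 12 of 12 tumors, with ranges that did not overlap. Ltbp1 and Tgfb1 kept that order in only 8 of 12 tumors, as did Tgfb1 and Tgfbr2. For Ltbp1 and Tgfb1 the order differed by group. In Control, Ltbp1 (22.3, 22.9 and 26.0) was above Tgfb1 (16.1, 14.6 and 16.7). In As300, Tgfb1 (23.6, 26.2 and 23.4) was above Ltbp1 (21.2, 21.9 and 21.2). Tgfbr3 was above Tgfbr1 in all 12 tumors and Smad7 above Tgfb2 in 11, although the ranges overlapped. The level of Tgfb3 was above that of 95.3% of all tested genes and that of Tgfb2 above 45.3%.

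**Figure D1:**
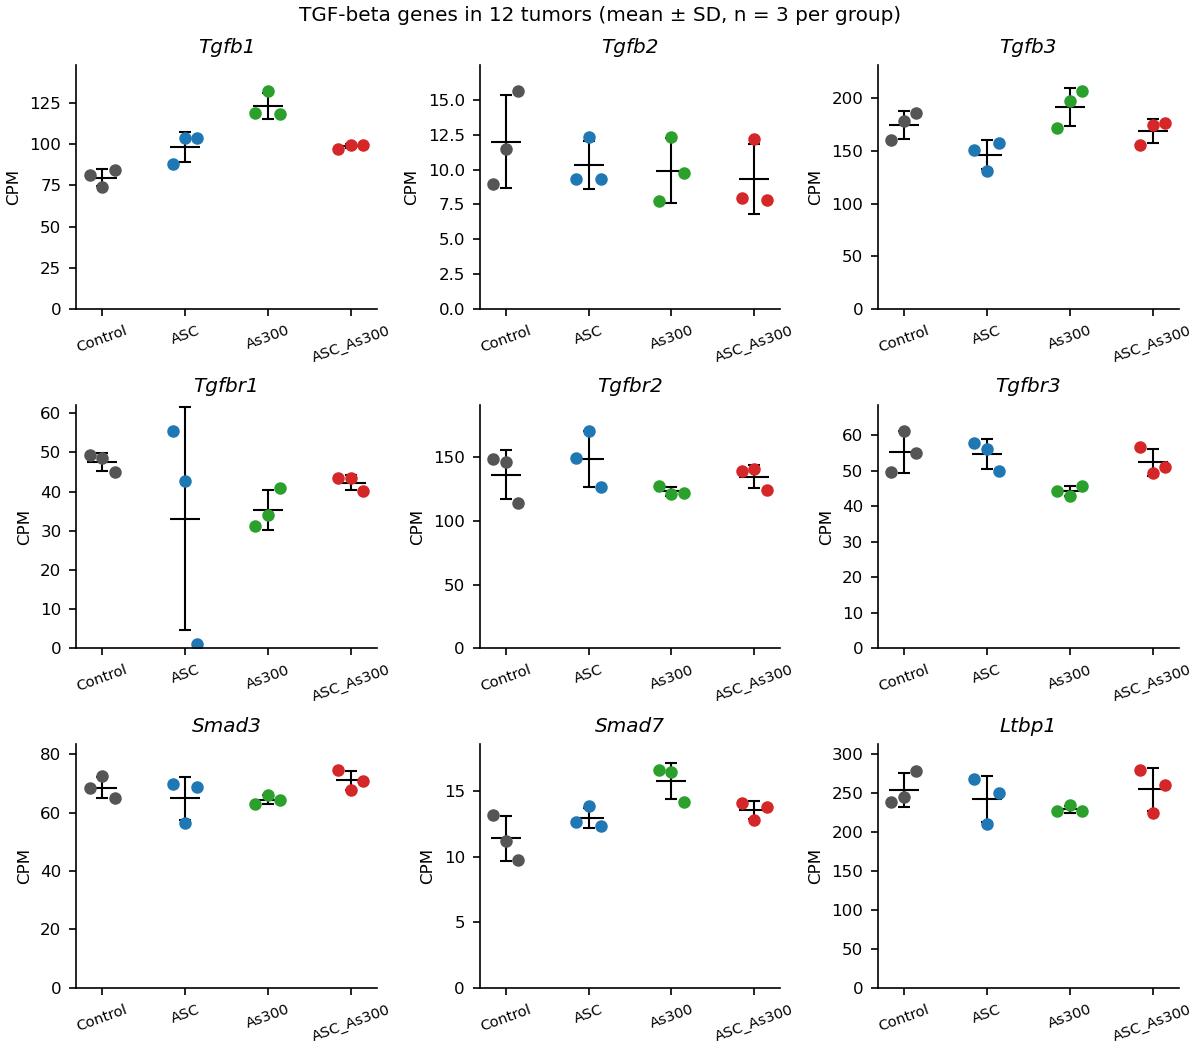
CPM (TMM-scaled, vertical axes from 0) of the 9 genes in the 12 tumors, by group; points are tumors, and bars are the mean and SD of 3. Tgfb1 lay between 73.8 and 84.1 CPM in Control and between 118 and 132 CPM in As300, and Tgfbr1 was at 1.21 CPM in ASC replicate 3.

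Tgfb1 encodes TGF-beta 1, the ligand best known from inflammation and fibrosis. It measured 81.2, 73.8 and 84.1 CPM in Control replicates 1 to 3 and 119, 132 and 118 CPM in As300. In ASC it measured 88.1, 104 and 104 CPM, and in ASC_As300 97.4, 99.8 and 99.3 CPM. Every one of the 9 treated tumors was above every Control tumor, and the 3 As300 tumors were also above all others. The shares of all tested genes with these patterns were not counted.

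The comparison of As300 with Control asks what iAs alone did. Tgfb1 rose 1.54-fold (log2 fold change 0.63, SE 0.08, 95% interval 0.44 to 0.81), with an adjusted p of 0.0356 in edgeR's quasi-likelihood test. A gene was called here when its adjusted p, over all 20818 tested genes, was under 0.05 and its change at least 1.5-fold, which 0.701% of the tested genes passed upwards and 1.06% in either direction. Tgfb1 was the only called gene of the 9, and its change was close to the limit. The call was lost, with adjusted p between 0.0583 and 0.154, when any of 7 tumors was left out: Control replicate 1, 2 or 3, As300 replicate 2 or 3, or ASC_As300 replicate 1 or 3; the change stayed between 0.57 and 0.69. Genes rich in G and C were higher in As300 as a class: with all genes split by GC content into 10 bins, the bin of Tgfb1 (56.2% GC, 2079 genes) had a median log2 fold change of 0.19, Tgfb1 lay above 88.1% of that bin, and with a correction for GC content its change was 0.44 with an adjusted p of 0.0953 (edgeR). Over all tested genes, 220 were called in As300 against Control without that correction and 1 with it, and 0 to 399 when 1 tumor was left out.

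In ASC against Control, Tgfb1 was 1.23-fold higher (log2 0.30, SE 0.08), which did not pass (edgeR adjusted p = 0.137). In ASC_As300 against Control, which uses the same 3 Control tumors, the value was 1.24-fold (log2 0.31, SE 0.08, edgeR adjusted p = 0.121). With the GC correction both were smaller, at 0.17 and 0.16 on the log2 scale (edgeR adjusted p = 0.376 and 0.468), and the GC bin of Tgfb1 had medians of 0.13 and 0.14. Groups that do not overlap in the higher direction occurred in 9.94% of tested genes for ASC, 14.5% for As300 and 13.5% for ASC_As300, against 1 of the 9 genes, 2 of 9 and 1 of 9. Between ASC_As300 and ASC, the comparison of iAs in tumors that held ASC, Tgfb1 differed by 0.01 on the log2 scale (95% interval -0.18 to 0.19). The interaction, the iAs effect with ASC minus that without, was -0.62 (SE 0.12); its adjusted p was 0.309 in edgeR and 0.00228 in DESeq2, so the tools differed on it.

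Tgfb3 encodes TGF-beta 3, known for its roles in palate and tissue repair. It measured 160, 179 and 186 CPM in Control, 151, 131 and 157 in ASC, 172, 197 and 207 in As300, and 156, 174 and 176 in ASC_As300. All 3 ASC tumors were below all 3 Control tumors, while the other groups overlapped with Control. The ASC value was 0.838-fold of Control (log2 -0.25, SE 0.10, edgeR adjusted p = 0.243), and groups that do not overlap in the lower direction made up 9.01% of tested genes. Over both iAs levels the ASC effect on Tgfb3 was -0.22 (SE 0.07, edgeR adjusted p = 0.19).

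Tgfb2, the ligand known from heart and eye development, measured 8.97, 11.5 and 15.6 CPM in Control, 9.33, 12.3 and 9.35 in ASC, 7.73, 12.3 and 9.73 in As300, and 7.95, 12.2 and 7.79 in ASC_As300. The groups overlapped throughout, and the Control tumors spread most (SD 3.36 CPM). Its 95% interval in As300 against Control, -0.82 to 0.27 on the log2 scale, holds changes beyond 1.5-fold in the lower direction.

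As a share of the 3 ligands' summed CPM per kilobase, Tgfb3 made up 63.1% to 76.1% in each of the 12 tumors. Tgfb1 made up 24.8%, 21.1% and 22.5% in Control, and 27.0% to 33.4% in the other 9 tumors, so that the ranges did not overlap. The share of Tgfb2 was 1.76% to 3.63%. ASC replicate 2 had the highest Tgfb1 share and the lowest Tgfb3 share.

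**Figure D2:**
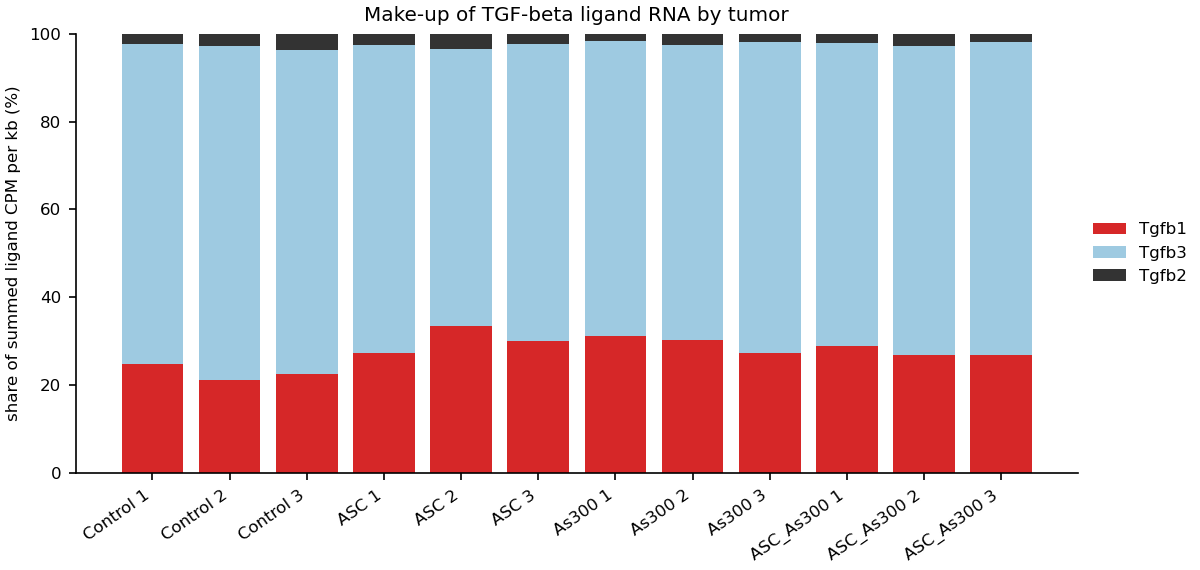
Share (%) of Tgfb1, Tgfb2 and Tgfb3 in the summed ligand CPM per kilobase of exon, as stacked bars, 1 bar per tumor. Tgfb1 was 21.1% to 24.8% in the 3 Control tumors and 27.0% or more in the other 9.

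Tgfbr1, the type I receptor kinase, measured 49.2, 48.5 and 45 CPM in Control, 31.2, 33.9 and 40.9 in As300 and 43.4, 43.3 and 40.1 in ASC_As300. In ASC it measured 55.5 and 42.6 CPM in replicates 1 and 2, but 1.21 CPM in replicate 3. That library held 52 counts of Tgfbr1, against 1246 to 2740 in each of the other 11. All As300 and all ASC_As300 tumors were below all Control tumors.

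With all tumors, Tgfbr1 in As300 against Control was -0.43 on the log2 scale with an SE of 0.72 (edgeR adjusted p = 0.784), in a fit that shares 1 spread over the 4 groups. Without ASC replicate 3 the value was -0.43 with an SE of 0.12 and an adjusted p of 0.0535 in edgeR, and with the 6 As300 and Control tumors alone it was -0.41 (SE 0.11, edgeR adjusted p = 0.0795). In ASC against Control, Tgfbr1 was -0.52 with that library and 0.04 without it, so the direction rests on 1 library. Tgfbr1 has 43.5% GC, and its GC bin had a median of -0.26 in As300 and of -0.17 in ASC_As300, where Tgfbr1 itself was also at -0.17. With the GC correction Tgfbr1 was -0.20 in As300 and -0.03 in ASC_As300 against Control. Groups that do not overlap in the lower direction made up 15.4% of tested genes for As300, against 3 of the 9 (Tgfbr1, Tgfbr3 and Ltbp1), and 12.2% for ASC_As300, against 1 of 9 (Tgfbr1).

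Low values of this kind were rare. Among genes with at least 500 counts in all other tumors, 8 cases over the 12 tumors were more than 10 times below every other tumor's count, 2 of them in ASC replicate 3 (Tgfbr1 and Ctdspl). Ctdspl, a phosphatase gene, had 36 counts there against 727 to 1194 elsewhere. What the low values come from was not tested.

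Tgfbr2, the type II receptor that binds ligand first, measured 149, 147 and 114 CPM in Control, 149, 171 and 127 in ASC, 128, 121 and 122 in As300, and 140, 141 and 124 in ASC_As300. All groups overlapped with Control. None of its fold changes against Control was beyond 1.09 or below 0.904, and in ASC against Control the 95% interval was -0.13 to 0.38 on the log2 scale.

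Tgfbr3, the co-receptor betaglycan, measured 49.6, 61.2 and 55 CPM in Control and 44.3, 43.0 and 45.6 in As300. In ASC it measured 57.9, 56.1 and 49.9 CPM, and in ASC_As300 56.6, 49.4 and 51.1 CPM. The 3 As300 tumors were below the other 9. Against Control the As300 value was 0.801-fold (log2 -0.32, SE 0.09, edgeR adjusted p = 0.0723), which did not pass, and it was -0.30 after the GC correction.

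**Figure D3:**
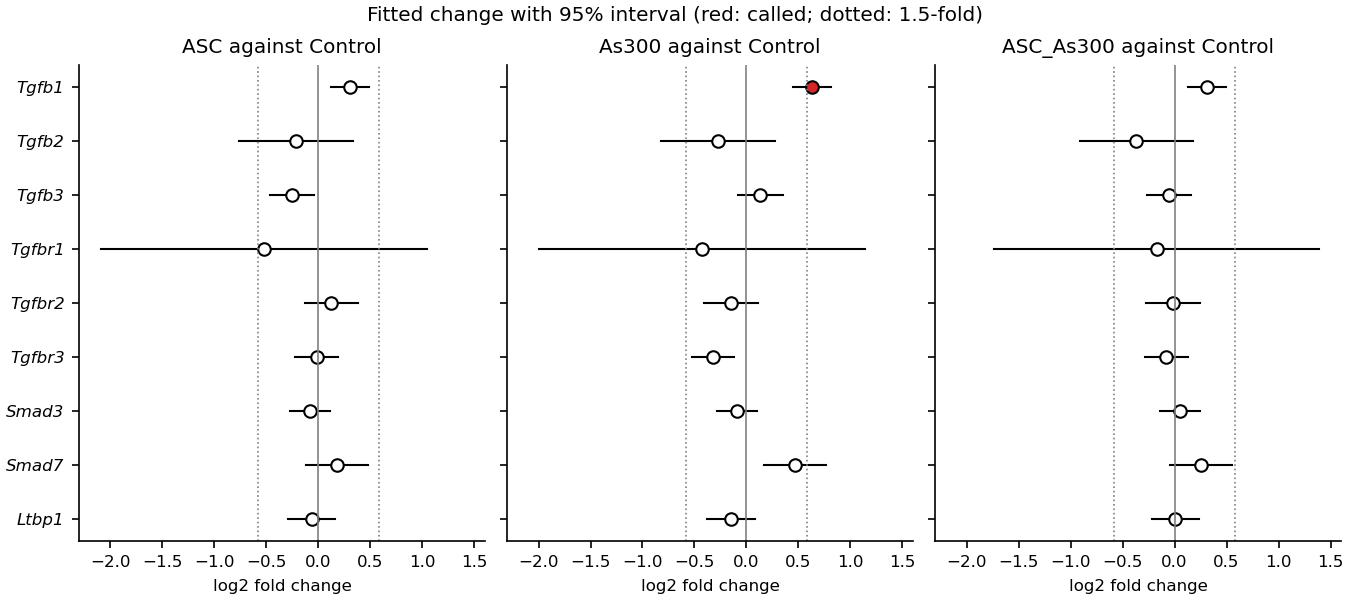
Log2 fold change against Control (horizontal axis) of the 9 genes in ASC, As300 and ASC_As300; lines are 95% intervals from edgeR over 12 tumors, red points passed the test and dotted lines mark 1.5-fold. Only Tgfb1 in As300 (0.63) passed, and the wide Tgfbr1 intervals come with the single low ASC library.

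Smad3, the receptor-activated carrier of the signal to the nucleus, measured 68.3, 72.5 and 65 CPM in Control, 69.7, 56.3 and 68.7 in ASC, 62.9, 66.1 and 64.2 in As300, and 74.5, 67.9 and 70.7 in ASC_As300. The groups overlapped with Control, and the values against Control ran from -0.09 to 0.05 on the log2 scale. Their 95% intervals stayed within 1.5-fold in all 3 comparisons.

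Smad7, the inhibitory SMAD that TGF-beta signaling itself induces, measured 13.2, 11.2 and 9.78 CPM in Control, 12.7, 13.9 and 12.4 in ASC, 16.6, 16.5 and 14.2 in As300, and 14.1, 12.8 and 13.8 in ASC_As300. The As300 tumors were above all the others. The As300 value was 1.38-fold of Control (log2 0.46, SE 0.14), which did not pass (edgeR adjusted p = 0.075). Smad7 has 58.6% GC, its bin of genes by GC content had a median of 0.29, and the Smad7 value was 0.20 after the GC correction.

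Ltbp1, which tethers latent ligand to the matrix, measured 238, 245 and 278 CPM in Control, 268, 210 and 250 in ASC, 227, 234 and 226 in As300, and 279, 224 and 261 in ASC_As300. The As300 tumors were below the Control tumors, by 0.903-fold (log2 -0.15, SE 0.11, edgeR adjusted p = 0.434). ASC and ASC_As300 overlapped with Control.

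Over the 9 genes, the median log2 fold change against Control was -0.06 for ASC, -0.15 for As300 and -0.02 for ASC_As300, beside -0.0044, -0.03 and -0.02 over all tested genes. Of the 9, 3, 3 and 4 had values above 0, beside 49.5%, 47.5% and 47.3% of all tested genes. No gene of the 9 was called in ASC or ASC_As300 against Control, where 0.721% and 0.807% of tested genes were called, nor in the ASC effect over both iAs levels, where 1.45% were. In ASC_As300 against ASC, in the interaction and in the iAs effect over both levels of ASC, edgeR called 0 of all 20818 genes, which is 0% in each, and DESeq2 called 11, 144 and 114; 3.21%, 13.6% and 16% of genes had an unadjusted p under 0.05 in edgeR. Of the 9, 0, 1 and 4 had such a p in those 3 comparisons; the 4 were Tgfb1 (0.32), Tgfb3 (0.17) and Smad7 (0.27), higher with iAs, and Tgfbr3 (-0.19), lower with iAs. Against Control, 95% intervals stayed within 1.5-fold for 7 of 9 genes for ASC, for 5 of 9 with As300 and for 7 of 9 with both.

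Over the 12 tumors, which share treatment groups and GC-related shifts, log2 CPM of Tgfb1 and Tgfbr3 had a Pearson r of -0.81 and a Spearman rho of -0.75. After the group means were taken out, r was -0.63. Tgfb1 and Smad7 had r = 0.79, but 0.08 within groups, so this relation lay between groups. Tgfb3 and Tgfbr2 had r = -0.79 (-0.70 within groups), and Smad3 and Ltbp1 r = 0.69 (0.63 within groups).

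For Tgfb1 and Tgfbr1, the ligand and its type I receptor, Pearson's r was -0.21 and Spearman's rho -0.85. Without ASC replicate 3, r was -0.82. After the group means were taken out, with all 12 tumors and so with ASC replicate 3, r was -0.41. In As300 against Control the GC bin of Tgfb1 had a median of 0.19 and that of Tgfbr1 a median of -0.26. The part of such shifts in r was not tested. These correlations are descriptions of 12 tumors in 4 groups.

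**Figure D4:**
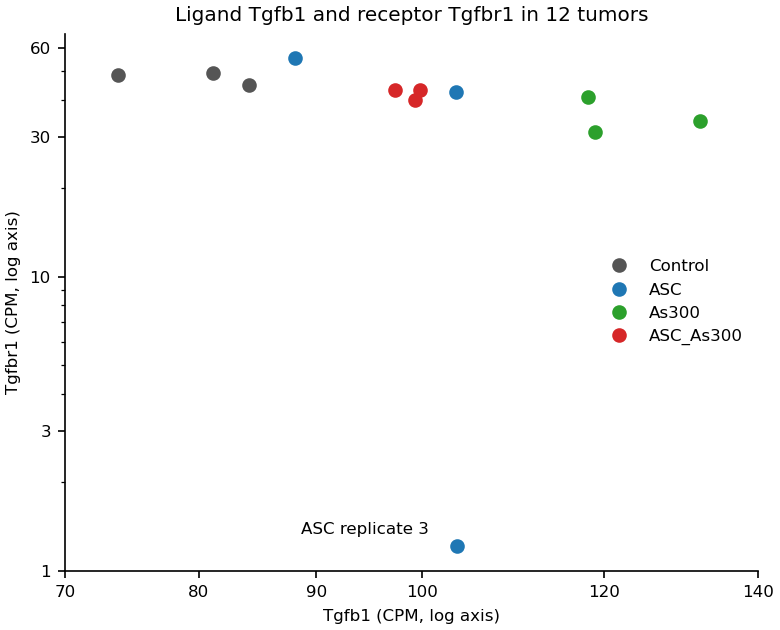
Tgfb1 (horizontal) against Tgfbr1 (vertical), both in CPM on log axes, in the 12 tumors, colored by group. Tgfbr1 was 1.21 CPM in ASC replicate 3 and at least 31.2 CPM elsewhere, where r was -0.82 over tumors of all 4 groups. With the group means taken out, r was -0.41 over all 12 tumors.

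The genes most like each of the 9, by Pearson's r of log2 CPM over the 12 tumors among 13145 genes, were Atp6v0c-ps2 (0.97), a pseudogene whose counts are uncertain because it shares sequence with its parent gene, and Glrx5 (0.96) for Tgfb1. Tgfbr1 had Ctdspl and Atxn7 (both 0.99), which were also low in ASC replicate 3. Tgfbr2 had Pygl (0.97) and Tm6sf1 (0.92), and Tgfbr3 had Tlr4 (0.92) and Ubtd2 (0.92). For Smad7 it was Shld1 (0.91), for Smad3 Ints3 (0.94), for Ltbp1 Sh3kbp1 (0.92), for Tgfb3 Gm21986 (0.91) and for Tgfb2 Dyrk1a (0.91).

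Marker lists moved with some of these values. The neuronal list (6 genes: Snap25, Syt1, Syp, Syn2, Nefh and Rbfox3) summed to 40.1 to 58.9 CPM in As300 and to 4.50 to 19.7 CPM in Control, 6 of 6 genes did not overlap, and 3 were called higher in As300. Over all tested genes, 14.5% did not overlap in the higher direction and 0.701% were called higher in As300. The neuronal list had r = 0.78 with Tgfb1 over the 12 tumors. The macrophage list lay at 644 to 909 CPM for Control tumors, at 903 to 926 for As300, at 950 to 1330 for ASC and at 1000 to 1190 for ASC_As300, and had r = 0.24 with Tgfb1 and 0.65 with Tgfbr2. The adipocyte list (5 genes) was at 128 to 269 CPM in Control, 44.8 to 68.7 in As300 and 31 to 56.5 in ASC_As300, with 5 of 5 genes not overlapping in both and 0 called, and ran from 42.3 to 508 CPM in ASC. Of all tested genes, 15.4% did not overlap in the lower direction for As300 and 12.2% for ASC_As300, and 1.06% and 0.807% were called in either direction. The B and plasma cell list was at 2.88 to 135 CPM in Control and 0.759 to 2.70 in As300, and the T cell list at 11.1 to 60.5 and 10.1 to 13.4 CPM. All 11 genes of both had lower values in As300, and 0 were called. The highest Control value of both lists was that of Control replicate 1. Control replicates 2 and 3 were at 2.88 and 4.21 CPM for the B and plasma cell list. For the T cell list they were at 12.6 and 11.1 CPM, within the As300 range. In ASC and ASC_As300 the T cell list was at 38.4 to 53.7 and 33.5 to 54.2 CPM. There the B and plasma cell list was at 3.17 to 8.76 and 3.18 to 3.29 CPM. In the ASC effect over both iAs levels, 1 of the 6 T cell genes was called higher, beside 1.36% of all tested genes. Of the 6 macrophage genes, 2 were called higher in ASC, 2 in ASC_As300 and 0 in As300, beside 0.706%, 0.783% and 0.701%. With Tgfb1, r was -0.35 for the adipocyte, -0.48 for the B and plasma cell and -0.28 for the T cell list. The epithelial and tumor list was at 64.7 to 361 CPM in Control and 93.7 to 118 in As300. It was at 30.8 to 47.1 CPM in ASC and 25.5 to 40.1 in ASC_As300, so all tumors with ASC lay below all without. In the ASC effect over both iAs levels, 4 of its 6 genes were lower and 2 higher. Of these, 1 was called lower, beside 0.0865% of all tested genes. Its r with Tgfb1 was -0.03, and 0.36 without Control replicate 1. The part of these cells in the values of the 9 genes was not tested.

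Beyond the 9 genes, 72 other genes of the pathway, its targets and its sister branches were examined in 5 lists, and all 72 were tested. Against Control, 1 of 72 was called in ASC and in ASC_As300, the same gene, and 0 of 72 in As300; over all tested genes 0.721%, 0.807% and 1.06% were called. Medians over the 72 were -0.04, -0.01 and -0.08 for ASC, As300 and the mix with iAs. In the ASC effect over both iAs levels 2 of 72 were called, beside 1.45% of all tested genes.

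The called gene was Fst, of the activin and BMP list (16 genes), which encodes follistatin, a secreted protein that binds and neutralizes activin. It measured 9.01, 11.2 and 11.5 CPM in Control and 13.4, 13.6 and 9.09 in As300, against 36.0, 23.2 and 34.3 in ASC and 40.4, 32.3 and 42.3 in ASC_As300. All 6 tumors with ASC were above all 6 without, as in 1.68% of all tested genes. Fst rose 2.95-fold in ASC (log2 1.56, SE 0.20, edgeR adjusted p = 0.00201) and 3.63-fold in ASC_As300 (log2 1.86, SE 0.20, edgeR adjusted p = 0.000635) against the same Control tumors. Over both iAs levels the ASC effect was 3.07-fold (edgeR adjusted p = 3.26e-05). Inhba, the activin A subunit that follistatin binds, measured 136, 138 and 150 CPM in Control, 112, 93.9 and 76.6 in ASC, 93.3, 79.4 and 108 in As300, and 118, 88.5 and 120 in ASC_As300. All 9 treated tumors were below the Control tumors. The values of -0.59 (ASC), -0.60 (As300) and -0.38 (ASC_As300) did not pass (edgeR adjusted p = 0.113, 0.0533 and 0.265), and the GC correction gave -0.37 in As300. Of all tested genes, 9.01%, 15.4% and 12.2% did not overlap in the lower direction in these comparisons. The share lower in all 3 was not counted.

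Of the 13 latency and activation genes, Ltbp2, an LTBP family member of the elastic fibers, fell in the ASC effect over both iAs levels, to 0.583-fold (log2 -0.78, SE 0.18, edgeR adjusted p = 0.0473). It measured 15.7 to 23.3 CPM in the 6 tumors without ASC and 8.30 to 16.6 CPM in the 6 with ASC, so the groups overlapped. Its adjusted p was above 0.05 when any of 9 tumors was left out, Control replicates 1 and 3, ASC replicates 1 and 3, all 3 As300 tumors, and ASC_As300 replicates 1 and 3, at log2 values from -0.82 to -0.68. Furin, the protease that cuts the TGF-beta precursor, was 1.39-fold in ASC_As300 (edgeR adjusted p = 0.0196), and Emilin1, a matrix protein, 1.44-fold (edgeR adjusted p = 0.0338); both were under the 1.5-fold limit, and with the GC correction their adjusted p were 0.265 and 0.195 (edgeR). Both were above Control in every tumor of the other groups too. Furin was at 98.1 to 105 CPM in Control and at least 116 CPM elsewhere, and Emilin1 at 97.2 to 111 CPM and at least 123 CPM. Both were named for their small p, so this separation is not independent of that choice. Of all tested genes, 9.94% (ASC), 14.5% (As300) and 13.5% (ASC_As300) did not overlap in the higher direction. The share higher in all 3 was not counted.

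Among the 24 transcriptional targets, 0 were called in As300. Junb, an AP-1 subunit induced early by TGF-beta, measured 73.3, 74.9 and 85.5 CPM in Control and 110, 117 and 119 in As300, with 83.9 to 99 CPM in ASC and 95 to 109 CPM in ASC_As300; As300 against Control was a 1.48-fold difference (edgeR adjusted p = 0.0401). That was just under the 1.5-fold limit, which it passed under DESeq2 size factors (log2 0.59, edgeR adjusted p = 0.0365), while the GC correction gave 0.18 (edgeR adjusted p = 0.44). Cdkn1a, the cell-cycle inhibitor p21, measured 46.2, 45.6 and 47.0 CPM in Control and 69.7, 59.4 and 59.1 in As300 (log2 0.44, 1.35-fold, edgeR adjusted p = 0.043; 0.34 with the GC correction, edgeR adjusted p = 0.159). It was also above Control in every tumor of ASC (54.4 to 64.5 CPM) and of ASC_As300 (58.5 to 62.6 CPM), at 1.28-fold and 1.32-fold (edgeR adjusted p = 0.0951 and 0.0548). The list's median in As300 was -0.18, beside -0.03 over all tested genes, with 10 genes higher and 14 lower.

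Of the 13 SMADs and their regulators, none was called in As300, ASC or ASC_As300 against Control. In ASC, 11 of the 13 had lower values than Control (median -0.14), 3 of them with an unadjusted p under 0.05, which 6.87% of tested genes had in that direction. Pmepa1, a feedback inhibitor that TGF-beta induces, was 0.818-fold in the ASC effect over both iAs levels (edgeR adjusted p = 0.031), under the 1.5-fold limit. That average joins unequal gaps: mean CPM fell from 140 (Control) to 125 (ASC), but from 174 (As300) to 130 (ASC_As300). The difference between these gaps was not called, as for all tested genes in edgeR's interaction. All As300 tumors (at least 161 CPM) exceeded all Control tumors (at most 143 CPM), as in 14.5% of tested genes. Among the 6 accessory receptors, 0 were called, and Acvrl1, the endothelial type I receptor, was 1.40-fold in the ASC effect (edgeR adjusted p = 0.0964).

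**Figure D5:**
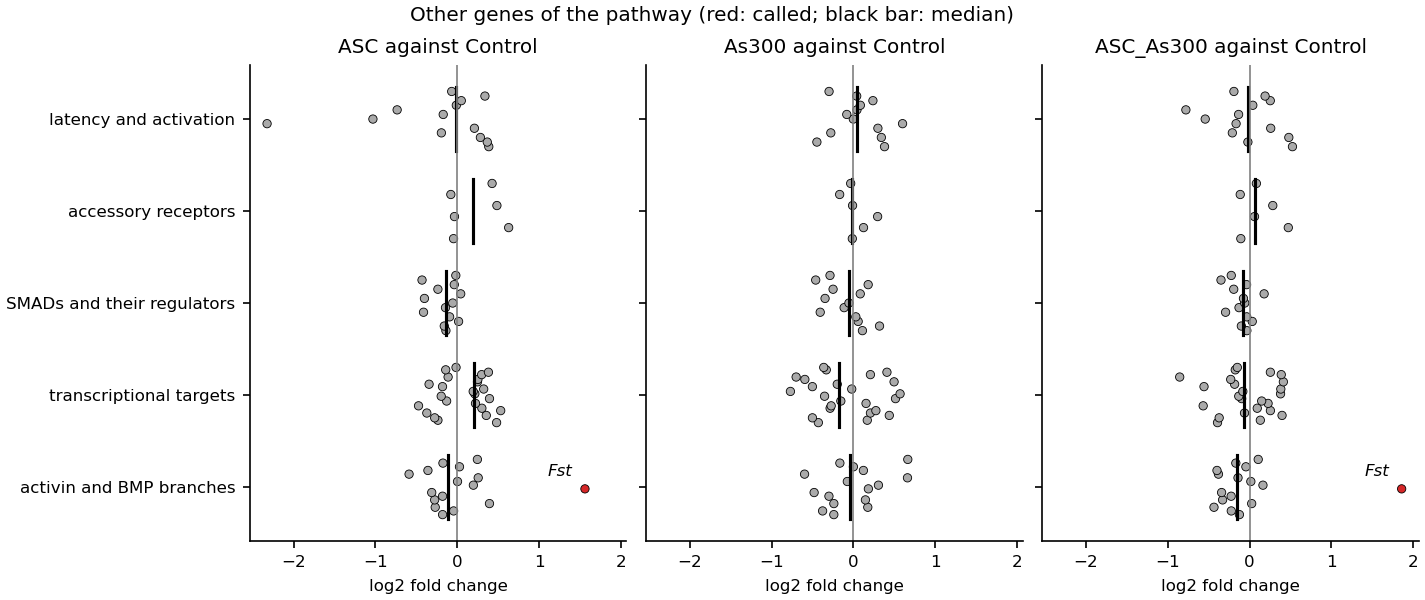
Log2 fold change against Control (horizontal axis) of the 72 other genes in 5 lists; points are genes, red points passed the test and black bars are list medians. Fst (1.56 in ASC, 1.86 in ASC_As300) was the only called gene in these 3 comparisons.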

How the data were processed

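RNA of 12 mouse tumors was sequenced by the authors as stranded poly(A) libraries, paired-end. The deposited values were whole-number gene counts, 1 column per tumor. Per the labels and the submitters' processing notes, reads were trimmed with cutadapt 1.1.0, aligned with HISAT2 2.0 and assembled with StringTie 1.3.4. The genome build, the annotation and the counting step are not given in the sources used here. A value of 4 was more frequent than 3 or 5 in every tumor, so 1 count need not be 1 read pair, and dividing counts by 4 was tried. Symbols and exon lengths came from GENCODE M21 and matched 55141 of 55401 IDs.

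Counts were filtered with filterByExpr (20818 genes kept), scaled by TMM and fitted with edgeR 4.0.16 in R 4.3.3, using its quasi-likelihood test with 1 mean per group over all 12 tumors and 8 residual degrees of freedom. The 95% intervals are from the same fit. The p-values were adjusted by Benjamini-Hochberg over all tested genes. A gene was called at an adjusted p under 0.05 and at least 1.5-fold. Samples were grouped by their labels, and 7 comparisons were made. Each library is from 1 mouse, with its flanks pooled. DESeq2 1.42.0, other filters and scalings, a replicate block and leaving out each tumor were alternatives. A lowess correction for GC content was added after the data were seen. The fit was tested on simulated counts. The 9 genes, the gene lists and the tests were chosen with earlier results of these data known. Of each of the 5 other lists, the 3 genes with the smallest p were eligible to be named, with all called genes.

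Promoter windows came from RefSeq, GRCm38.p6.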

Additional observations from a re-analysis of the deposited data

Results flagged for a closer look

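The effect of iAs on Tgfb1 differed between tumors without and with ASC by a test of the difference itself, but only in 1 of the 2 tools. The interaction was -0.6206 on the log2 scale in edgeR (SE 0.12, adjusted p = 0.309) and -0.65 in DESeq2 (SE 0.13, adjusted p = 0.00228). Mean Tgfb1 was 79.7 CPM in Control and 123 CPM in As300, but 98.4 CPM in ASC and 98.8 CPM in ASC_As300 (n = 3 each). The value was negative in every alternative run, and with the GC correction it was -0.45.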

How the results depend on the processing

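Each of the 63 log2 values of the 9 genes, and 17 values of other named genes, was recomputed under the alternatives, which gave 1727 values, of which 1618 kept their direction and their side of the threshold. Fst kept its calls in all of them. The call of Tgfb1 in As300 held with DESeq2 (adjusted p = 3.12e-08), under 7 other settings and with the replicate block (0.63, edgeR adjusted p = 0.0366), and was lost with the GC correction, which left 0 called genes of the 9. The 7 include no minimum fold and an unadjusted p. These only loosen the threshold of the same fit, so no call, of Tgfb1 or of Fst, could be lost there. Leaving out 1 tumor gave 0 to 1 called genes of the 9. Over all genes tested, 220 calls in As300 against Control became 8 with no filter on low counts and 1 with the GC correction, and 0 to 399 when a tumor was left out, with 0 in 5 of those 12 fits (each Control tumor, ASC_As300 replicates 1 and 3); the cause was not tested.

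In the interaction, 1 of the 9 genes (Tgfb1) was called with DESeq2 and with an unadjusted p. Of the 72 other genes, the called ones numbered 4 (DESeq2) and 5 (unadjusted p) in ASC against Control, with 1 to 3 when a tumor was left out. In As300 against Control they numbered 1 with DESeq2, DESeq2 size factors, at least 10 counts in every tumor, counts divided by 4, the 6 tumors alone or an unadjusted p, 2 with no minimum fold, and 0 to 2 when a tumor was left out. In ASC_As300 against Control they numbered 2 (DESeq2), 3 (no minimum fold) and 2 (unadjusted p), with 1 to 2 when a tumor was left out. In ASC_As300 against ASC an unadjusted p gave 1, in the iAs effect 2, and in the interaction 2 (DESeq2 gave 1). In the ASC effect they numbered 1 with no filter or the replicate block, where Ltbp2 had adjusted p of 0.0506 and 0.0751 (edgeR), 3 with DESeq2, an unadjusted p or no minimum fold, and 1 to 2 when a tumor was left out. The replicate block changed no other call. Deviations of same-numbered tumors from their group means had correlations of -0.12 to 0.17. Differently numbered tumors were not set beside them, so these values cannot settle whether the numbers pair the tumors.

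Changes of direction, 72 in number, were of values of at most 0.22 in size, except for Tgfbr1. With other settings, Tgfb1 in ASC_As300 against ASC was -1e-04 (DESeq2), -0.0059 (DESeq2 size factors), -0.0045 (at least 10 counts), -0.0049 (counts divided by 4), -0.0031 (6 tumors) and -0.0102 (GC). Tgfbr2 in the interaction was -0.0231 (DESeq2), -0.0292 (DESeq2 size factors), -0.0045 (no filter), -0.0417 (at least 10 counts), -0.0445 (counts divided by 4) and -0.0019 (replicate block). Ltbp1 in ASC_As300 against Control was -0.0012 (DESeq2 size factors) and -0.0094 (GC). With the GC correction Smad3 was -0.0369 in ASC_As300 against Control, -0.0020 in the ASC effect and -0.0349 in the iAs effect. Tgfbr1 in the iAs effect was 0.0875 (replicate block) and 0.1065 (GC).

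When each tumor was left out in turn, the following log2 values changed direction, with the lowest and highest given. In ASC against Control, the range was Tgfb2 from -0.3806 to 0.0321, Tgfbr1 from -1.1025 to 0.0422, Tgfbr3 from -0.0811 to 0.0764, Smad3 from -0.1242 to 0.0122 and Ltbp1 from -0.1208 to 0.0298. In ASC_As300 against Control, the range was Tgfb3 from -0.1067 to 0.0132, Tgfbr2 from -0.1177 to 0.0545, Tgfbr3 from -0.1465 to 0.0109 and Ltbp1 from -0.0552 to 0.0945. In ASC_As300 against ASC, the range was Tgfb1 from -0.0790 to 0.0477, Tgfbr1 from -0.2126 to 0.9394 and Ltbp1 from -0.0227 to 0.1465. In the ASC effect, the range was Tgfb1 from -0.0314 to 0.0338, Tgfbr1 from -0.4291 to 0.1503 and Smad7 from -0.0637 to 0.0411. In the iAs effect, the range was Tgfbr1 from -0.3207 to 0.2660, Smad3 from -0.0262 to 0.0522 and Ltbp1 from -0.0851 to 0.0106. In the interaction, the range was Tgfb2 from -0.1460 to 0.3123, Tgfb3 from -0.0047 to 0.1256 and Tgfbr2 from -0.0968 to 0.1153. For Tgfbr1, ASC replicate 3 set the direction in ASC against Control (0.0422 without it).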

Other observations

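The biological coefficient of variation, the spread between tumors that the fit estimated beyond counting error, was 9.11% for Tgfb1, a value above that of only 5.3% of tested genes, and 9.57% for Smad3. For Tgfbr1 it was 61.7%, with the single low ASC library in the fit. Low values like that of Tgfbr1 were also found in other tumors: Sertad2 had 124 counts in As300 replicate 2 against 1469 to 2520 elsewhere, and Sept2 had 0 counts in Control replicate 3 against 687 to 7077 elsewhere.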
